A study of Mus musculus with 12 samples.

Results

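Chromatin accessibility had been profiled by ATAC-seq, in which a transposase cuts open DNA, in cells sorted from mouse bone marrow. The regions described here kept a similar accessibility from stem and progenitor cells to granulocyte-monocyte progenitors in wild-type mice, and in mutant mice were lost in the former cells and not in the latter. They were selected on the measured values themselves. For each of 121336 regions, CPM values (counts scaled to the total of their library) were averaged over the libraries of a group and 0.25 was added. A region was taken when the WT-GMP to WT-LSK ratio lay between 0.5 and 2, the WT-LSK value was at least 2, the URE to WT ratio in LSK was at most 0.4, and the URE to WT ratio in GMP lay between 0.67 and 1.5. This left 903 regions, 0.744% of all regions and 1.43% of the 63141 regions that met the wild-type limits.

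There were 4 groups of 3 libraries. The study's methods give the libraries of a group as separate mice. LSK cells are lineage-negative, Sca-1 positive and c-Kit positive, a gate that holds hematopoietic stem cells and multipotent progenitors. GMP, sorted as Sca-1 negative, c-Kit positive and CD16/32 positive cells, are progenitors of neutrophils and monocytes. WT-LSK and WT-GMP came from wild-type mice, and URE-LSK and URE-GMP from mice with both copies of the upstream regulatory element (URE) of Spi1 deleted (UREd/d). Littermates on a C57BL/6 background aged 8 to 12 weeks were used in the study, and UREd/d animals carry the deletion in the germline.

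Spi1 encodes PU.1, a transcription factor of the ETS family that binds purine-rich DNA around a GGAA core and is needed for myeloid and lymphoid development. The URE is an enhancer upstream of Spi1 that PU.1 itself binds. In myeloid cells PU.1 shares many enhancers with C/EBP factors, of which C/EBPα is needed to form GMP, and with RUNX1.

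As a check of the genotypes, the region at the upstream Spi1 transcript start (chr2:91082170-91082472) held 5.99, 5.76 and 5.89 CPM in the WT-LSK libraries and 10.03, 6.66 and 7.28 CPM in the WT-GMP libraries. It held 0, 0.0547 and 0.0433 CPM in URE-LSK and 0 in each of the 3 URE-GMP libraries, as the labels give the genotypes. The region lies upstream of the main Spi1 start, on the side of the deleted element. Reads cannot come from deleted DNA, so these values are not read as a loss of accessibility at a start. The limits of the deletion were not mapped here. Library totals ran from 23072701 to 62204826 counts. Summed CPM near LSK marker genes (7 of 8 with a region within 5 kb of a start) ran from 699 to 737 in LSK of WT mice, 705 to 773 in LSK of URE mice, 476 to 543 in GMP of WT mice and 410 to 434 in GMP of URE mice. Near 7 GMP marker genes the sums ran from 227 to 242 in LSK of WT mice, 165 to 262 in LSK of URE mice, 780 to 1003 in GMP of WT mice and 1125 to 1205 in GMP of URE mice. Near 4 monocyte and dendritic cell markers they ran from 121 to 125 in LSK of WT mice and 75.1 to 78.8 in LSK of URE mice, and from 141 to 160 in GMP of WT mice and 77.2 to 96.1 in GMP of URE mice. In LSK the sums near megakaryocyte markers ran from 151 to 190 in WT and 200 to 211 in URE, near erythroid markers from 62.9 to 65.8 and 68.4 to 71.3, and near T lineage markers from 19.6 to 27.1 and 31.99 to 36.04. Near B lineage markers they ran from 39.8 to 46.6 and 43.8 to 47.0, and near mast cell and basophil markers from 7.47 to 10.5 and 13.5 to 21.2. The T lineage sum came from 3 of 4 genes with a region, and the mast cell and basophil sum from 1 of 3. The part of these shifts in the losses described here was not tested, and in bulk samples fewer cells with an open region and less opening per cell cannot be told apart.

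The following stretches of the GRCm38 reference (plus strand, 5′ to 3′) come from the members with the highest accessibility in WT-LSK or the lowest ratio in LSK, and show the motif letters counted later. Capitals mark the ETS core GAGGAA, extended to the PU.1 motif GAGGAAGT where all its letters are there, and the C/EBP motif TTGCNNAA, each on either strand. The first 3 come from regions with the PU.1 motif, centred on it, and the other 4 from the middle of regions without it.
Relt, chr7:100856332-100856471: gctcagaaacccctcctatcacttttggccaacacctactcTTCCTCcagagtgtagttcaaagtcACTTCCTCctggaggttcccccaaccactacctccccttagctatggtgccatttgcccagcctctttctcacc
Gm21057, chr7:80074969-80075108: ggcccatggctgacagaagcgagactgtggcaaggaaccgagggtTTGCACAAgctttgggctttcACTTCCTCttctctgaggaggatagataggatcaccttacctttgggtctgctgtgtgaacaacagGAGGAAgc
Gm37851, chr2:11332590-11332729: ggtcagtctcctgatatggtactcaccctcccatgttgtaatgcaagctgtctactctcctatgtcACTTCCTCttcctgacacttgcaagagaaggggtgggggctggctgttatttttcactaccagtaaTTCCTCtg
Btnl9, chr11:49170708-49170847: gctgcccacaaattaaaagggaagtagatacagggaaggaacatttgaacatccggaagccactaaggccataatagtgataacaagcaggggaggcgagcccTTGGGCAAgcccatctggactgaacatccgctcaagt
2900024D18Rik, chr13:6889596-6889735: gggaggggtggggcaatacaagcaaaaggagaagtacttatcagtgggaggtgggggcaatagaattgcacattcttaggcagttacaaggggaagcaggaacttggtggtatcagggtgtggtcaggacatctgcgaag
9930038B18Rik, chr12:8864928-8865067: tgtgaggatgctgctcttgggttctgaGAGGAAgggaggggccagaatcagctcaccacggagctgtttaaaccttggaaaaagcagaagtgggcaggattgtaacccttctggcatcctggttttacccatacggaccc
Dennd5a, chr7:109967913-109968052: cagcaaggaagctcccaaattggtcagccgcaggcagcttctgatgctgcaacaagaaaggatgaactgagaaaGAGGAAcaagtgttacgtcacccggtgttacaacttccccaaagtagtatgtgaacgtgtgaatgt
In the Gm21057 stretch a C/EBP motif stood a short way before the PU.1 motif. The middle of the 2900024D18Rik region held none of these letters.

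Because the rule used the LSK and GMP values, the accessibility levels of the members are given as a description. Across the 903 regions the median CPM was 6.74 in LSK of WT mice, 1.32 in LSK of URE mice, 7.82 in GMP of WT mice and 7.08 in GMP of URE mice. The medians of the single libraries were 6.24, 7.06 and 6.63 CPM in LSK of WT mice and 0.998, 1.42 and 1.43 CPM in LSK of URE mice. In WT-GMP they were 7.84, 8.45 and 7.26 CPM, and in URE-GMP 7.18, 7.54 and 6.21 CPM. The URE-LSK libraries stood apart from the other 9, and the URE-GMP libraries lay within or just under the range of WT-GMP.

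The URE to WT ratio in LSK had a median of 0.267 and ran from 0.0503 up to the limit. It was at most 0.1 in 41 members, between 0.1 and 0.2 in 207, between 0.2 and 0.3 in 308, and above 0.3 in 347. In GMP the ratio had a median of 0.826. It was at most 0.8 in 386 members, between 0.8 and 1 in 323, and above 1 in 194, so the members as a whole lay under equality in GMP as well. Within WT the GMP to LSK ratio had a median of 1.19, against 4.03 within URE, where it ran from 0.957 to 23.2. The plot of the genotype ratios shows the members at the upper left edge of one continuous cloud.

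**Figure D1:**
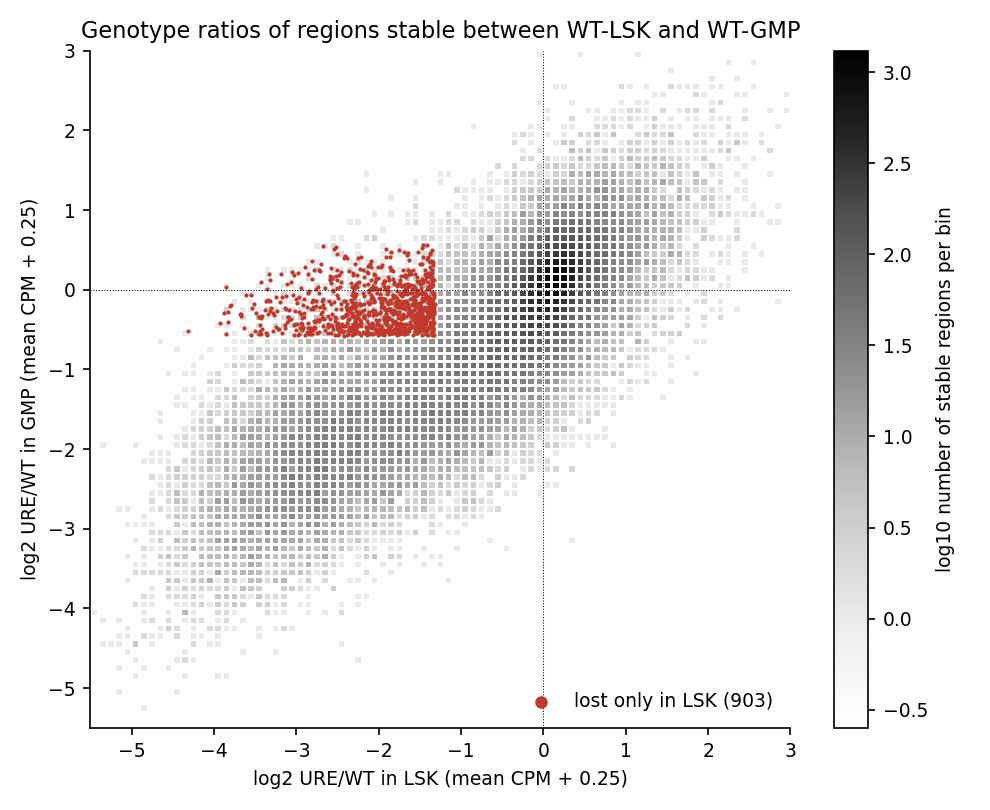
Log2 URE to WT ratio in GMP (y axis) against that in LSK (x axis) for regions stable between WT-LSK and WT-GMP, from mean CPM plus 0.25. Grey squares are bins shaded by the log10 number of regions, and red points are the 903 regions lost only in LSK, which lie at the edge of the cloud and not in a group of their own.

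Of the stable regions, 12678 had a ratio of at most 0.4 in LSK. In GMP, 9438 of these (74.4%) also lay at or under 0.4, 2304 (18.2%) lay between 0.4 and 0.67, 903 (7.12%) were the members, and 33 lay above 1.5. The member nearest the lower GMP limit had a ratio of 0.6705 (chr10:94356778-94357130), and the closest region outside it 0.6695 (chr3:108850473-108850975). At the LSK limit the nearest member had a ratio of 0.39997 and the nearest region outside 0.4005. At the upper GMP limit these values were 1.48 inside and 1.503 outside. For the WT-LSK level they were 2.01 and 1.98, for the lower limit of the WT step 0.502 and 0.491, and for its upper limit 1.995 and 2.003.

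All 903 members had their 3 URE-LSK libraries under the 3 WT-LSK libraries, as had 34.5% of all regions. In GMP the libraries of both genotypes overlapped for 565 members, the URE libraries lay under the WT libraries for 300 (33.2%, against 35.5% of all regions), and above them for 38 (4.21%, against 27.5%). A fit across all regions with edgeR, where a region was called at an adjusted p under 0.05 and an absolute log2 fold change over 1, called all 903 members lower in URE-LSK, beside 23.9% of all regions. None was called in GMP, beside 39.7% of all regions in either direction. Without the fold limit 86 members passed the adjusted p in GMP, 58 of them lower and 28 higher in URE, and 123 had an unadjusted p under 0.05. DESeq2 likewise called 0 members in GMP. Shares of all regions without the fold limit, by unadjusted p or with DESeq2 are not given here. These counts therefore do not show whether few or many members changed. For the interaction, a smaller loss or larger gain in GMP than in LSK being positive, 867 members (96%) were called positive, beside 8.96% of all regions. The step from LSK to GMP within URE was called higher in GMP for 833 members (92.2%), beside 27.6% of all regions. The rule used each of these contrasts, so nothing is read from the counts. The median log2 fold change of the members was -2.04 in LSK and -0.17 in GMP, beside 0.14 and 0.06 over all regions. TMM scaling raised the URE to WT ratio by a factor of 1.09 in both cell types over plain CPM.

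A value that the choice did not use was had by applying the rule to 2 libraries of each group and reading the ratio in the third. With the libraries numbered 1 left out, 859 regions were chosen, and in the left-out libraries their median ratio was 0.228 in LSK and 0.862 in GMP. With number 2 left out, 906 regions had medians of 0.296 in LSK and 0.835 in GMP. With number 3 left out, 1062 regions had medians of 0.289 in LSK and 0.750 in GMP. The left-out LSK ratio was at most 0.4 for 77.2% to 90.3% of the regions, and the left-out GMP ratio lay within its limits for 60.7% to 81.8%. The left-out GMP ratio was under 0.67 for 17.2% to 36.9%. The LSK ratio was under the GMP ratio for 97.6% to 99.2% of the regions in the left-out libraries. With 1 left-out library per group these values carry no test.

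The member with the highest WT-LSK level lay over a transcript start of Relt, a receptor of the tumor necrosis factor receptor family (chr7:100855771-100856638). It held 55.6, 56.9 and 57.9 CPM in LSK of WT mice, 17.1, 20.3 and 20.4 in LSK of URE mice, 46.1, 45 and 50.2 in GMP of WT mice, and 35.5, 36.6 and 32.5 in GMP of URE mice. Both genotype pairs were without overlap, with a ratio of 0.342 in LSK and 0.742 in GMP. An intronic region 7.88 kb from a start of Slc7a1, a transporter of cationic amino acids (chr5:148379425-148380267), held 42.4, 53.7 and 49.9 CPM in LSK of WT mice and 3.49, 8.83 and 6.18 CPM in LSK of URE mice. In GMP it held 39.5, 47.7 and 46.7 CPM in WT and 30.7, 38.0 and 25.7 CPM in URE. Its LSK ratio of 0.131 was the lowest of the 6 members highest in WT-LSK. The others of these 6 had LSK ratios between 0.352 and 0.3998, Relt at 0.342 apart. They lay over the start of the non-coding gene Gm21057 (chr7:80074528-80075549), within Osbpl3, an oxysterol-binding protein gene (chr6:50377650-50378745), within Itsn1, an endocytic scaffold gene (chr16:91869039-91870080), and in an exon of the non-coding gene Gm37851 (chr2:11332506-11333707). The Gm37851 region was the most even in GMP, with 56.8, 51.7 and 53.0 CPM in WT and 54.6, 52.4 and 51.8 CPM in URE, while in LSK it held 41.3, 45.03 and 45.3 CPM in WT and 12.8, 17.5 and 16.8 CPM in URE.

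Among members of at least 5 CPM in WT-LSK, the lowest ratio in LSK belonged to an intronic region over a transcript start of Btnl9, a butyrophilin-like gene (chr11:49170559-49170996). It held 13.5, 12.9 and 12.7 CPM in LSK of WT mice and 0.386, 0.301 and 0.563 CPM in LSK of URE mice, a ratio of 0.0503. In GMP it held 18.2, 24.2 and 23.6 CPM in WT and 14.7, 16.9 and 14.1 CPM in URE, so a region near closed in LSK of URE mice was open in GMP of URE mice, at 23.2 times the level with 0.25 CPM added to both. An intergenic region 7.33 kb from Dennd5a, which encodes an activator of Rab GTPases (chr7:109967799-109968167), held 8.08, 9.19 and 7.53 CPM in LSK of WT mice and 0.272, 0.164 and 0.585 CPM in LSK of URE mice. In GMP its genotypes overlapped, with 12.1, 12.2 and 9.13 CPM in WT and 13.0, 12.6 and 8.69 CPM in URE. The other 4 had LSK ratios from 0.0660 to 0.0701. They were 2 intergenic regions near the non-coding genes 2900024D18Rik (chr13:6889401-6889930) and 9930038B18Rik (chr12:8864634-8865361), an intronic region whose nearest protein-coding gene was that of the forkhead factor Foxp1 (chr6:99489795-99490512), and a region 16.5 kb from Kif20b, a mitotic kinesin gene (chr19:34905383-34905812). None of these 6 regions held the PU.1 motif GAGGAAGT.

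**Figure D2:**
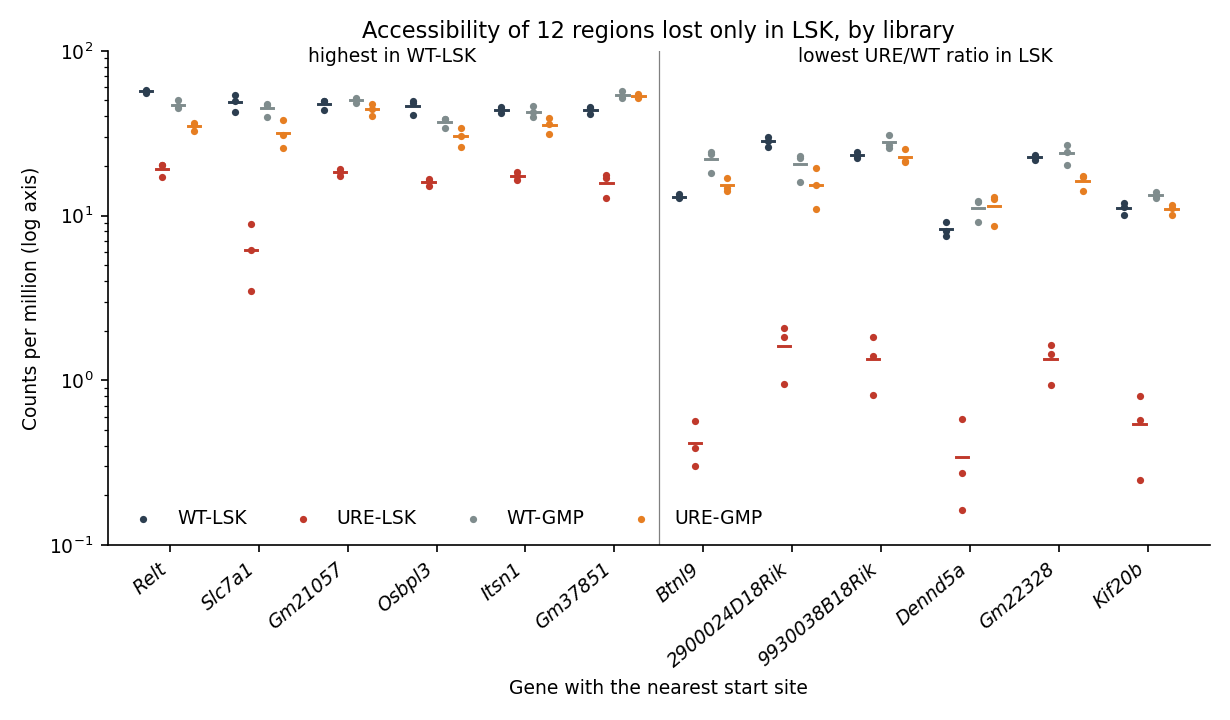
CPM on a log axis in each of the 3 libraries of the 4 groups (points) with their mean (line), for the 6 members highest in WT-LSK (left) and the 6 with the lowest LSK ratio (right), named by the gene with the nearest start site. In each region the 3 URE-LSK points lie under all other points, by the most on the right, where URE-LSK means run from 0.340 to 1.62 CPM.

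Few members lay at promoters. Within 500 bp of a transcript start were 93 members (10.3%), against 18.9% of all regions, 43.3% of stable regions kept in both cell types, 7.9% of those lost in both and 10.5% of the 544 lost only in GMP. Kept means a ratio between 0.67 and 1.5. Apart from promoters, 51.4% of members were intronic and 34.9% intergenic. The median width of the members was 390 bp, beside 389 bp for all stable regions, 326 bp for those lost in both, 429.5 bp for those lost only in GMP, 441 bp for those kept in both and 322 bp for all regions. Their median distance to a start was 6.97 kb, against 6.04 kb for all regions.

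Among the members at starts of protein-coding genes was the promoter of Ncf4, which encodes a cytosolic subunit of the phagocyte NADPH oxidase that makes superoxide. The region (chr15:78244549-78245411) held 22.5, 27.9 and 19.8 CPM in LSK of WT mice and 3.27, 4.68 and 4.53 CPM in LSK of URE mice. In GMP it held 38.9, 47.7 and 38.9 CPM in WT and 29.2, 34.7 and 23.3 CPM in URE, without overlap. Other promoters named by the same rule were those of Relt, Alox5ap (chr5:149264390-149265326), Cdkl4 (chr17:80564228-80565376) and Cd72 (chr4:43454472-43455005). Their LSK ratios were 0.342, 0.272, 0.158 and 0.299. The Alox5ap product acts with 5-lipoxygenase in leukotriene synthesis. Cdkl4 is a cyclin-dependent kinase-like gene, and Cd72 a B cell surface receptor gene. The regions of Ncf4, Cd72 and Relt held the PU.1 motif, 3 times in Ncf4, and those of Alox5ap and Cdkl4 did not.

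Sequence was not used by the rule, and motif shares are given as descriptions without a test. The PU.1 motif GAGGAAGT, on either strand, was present in 280 members (31%). It was present in 23.7% of stable regions lost in both cell types, 17.5% of those lost only in GMP, 6.32% of those kept in both and 10.5% of all regions. The shorter core GAGGAA, which every PU.1 motif contains, was present in 70.4% of members, 70.4% of regions lost in both and 46.9% of all regions. The related ETS motif CCGGAAGT was present in 2 members (0.221%) and in 1.88% of all regions. In the 280 members with the PU.1 motif its median distance from the region's centre was 40 bp, and 56.4% lay within 50 bp, beside 50 bp and 50.4% over all regions with the motif. By LSK ratio the share was 22% of the 41 members at or under 0.1, 33.3% up to 0.2, 33.4% up to 0.3 and 28.5% up to 0.4.

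The C/EBP motif TTGCNNAA was present in 311 members (34.4%). It was present in 14.5% of stable regions lost in both cell types, 14.7% of those lost only in GMP, 18.1% of those kept in both and 20.5% of all regions. Among stable regions lost in LSK, its share was 14.7% where the GMP ratio was at most 0.2, 14.5% between 0.2 and 0.4, 19.3% between 0.4 and 0.67, 34.4% in the members, and 36.4% of the 33 regions above 1.5. The PU.1 share over the same classes was 21.6%, 25.1%, 30.2%, 31% and 33.3%. Among the members themselves the C/EBP share was 30.1% at GMP ratios of at most 0.8, 33.7% up to 1, 43.1% up to 1.2 and 48% of the 50 members above that. Over these bins the median WT GMP to LSK ratio also rose, at 1.09, 1.22, 1.27 and 1.30. The median width was 373, 402, 406 and 405 bp. A longer form, TTGCNNAAT, was present in 8.08% of members, 2.73% of regions lost in both and 4.91% of all regions, and over the same 4 bins of members in 6.48%, 9.6%, 9.72% and 6%.

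**Figure D3:**
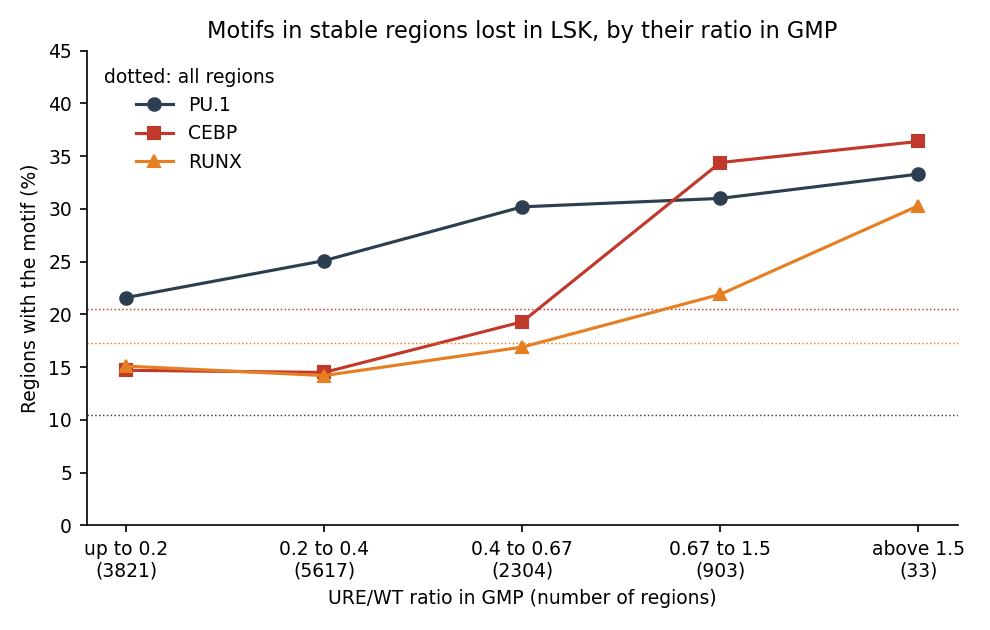
Share of regions (%) with the PU.1, C/EBP and RUNX motif among stable regions lost in LSK, by their URE to WT ratio in GMP, with the number of regions in each class. Dotted lines give the share over all regions. The C/EBP share goes from 14.7% in the lowest class to 34.4% in the members (0.67 to 1.5), the PU.1 share from 21.6% to 31%.

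The C/EBP share also moved with width and with the wild-type step. In regions up to 300 bp the motif was present in 22.8% of members and 9.75% of regions lost in both, above that and up to 600 bp in 35% and 16.2%, and above 600 bp in 46.5% and 28.6%. In regions with a WT GMP to LSK ratio under 1 it was present in 26% of members and 12.5% of regions lost in both, and at a ratio of at least 1 in 38.8% and 16.8%. Over all regions the share was 14% at a WT ratio under 1 and 27.8% at a ratio of at least 1. Away from promoters the motif was present in 35.1% of members and 14.5% of regions lost in both. The members exceeded the regions lost in both in each of these classes, and the same held for the PU.1 motif.

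Both motifs were present in 84 members (9.3%), against 3.38% of regions lost in both and 2.06% of all regions. The C/EBP motif without the PU.1 motif was present in 227 members, the PU.1 motif alone in 196, and neither in 396 (43.9%, against 65.2% of regions lost in both). The median GMP ratio was 0.880 in members with the C/EBP motif alone, 0.848 with both, 0.812 with the PU.1 motif alone and 0.811 with neither. Their median LSK ratios lay between 0.257 and 0.278, in a range that the rule limited. By LSK ratio the C/EBP share was 36.6% of members at or under 0.1, 41.1% up to 0.2, 32.8% up to 0.3 and 31.7% up to 0.4.

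Of the other motifs, the RUNX motif AACCACA was present in 21.9% of members, 14.5% of regions lost in both, 26.8% of regions lost only in GMP and 17.3% of all regions. The GATA motif AGATAA was present in 15.6% of members and 27.9% of regions lost only in GMP, against 15.7% of all regions. The AP-1 motif TGANTCA was present in 14.8% of members and 15.1% of all regions, and the IRF motif GAAANTGAA in 4.21% and 3.88%. Motifs of promoters and boundaries were scarce in the members and in the other lost classes alike. The SP/KLF motif GGGCGG was present in 10.5% of members, 8.83% of regions lost in both, 13.8% of regions lost only in GMP and 43.6% of regions kept in both. The CTCF motif was present in 0.664%, 0.212%, 0.368% and 10.4% of the same classes. Further shares in members and in all regions were 28.7% and 26.5% for the E-box CAGCTG, 24.1% and 21.1% for the MYB motif CAACTG, 9.97% and 7.6% for the TCF7/LEF1 motif CTTTGAA, 2.1% and 1.42% for the STAT motif TTCCNGGAA, and 1.11% and 1.32% for the HOX-PBX motif TGATTTAT.

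**Figure D4:**
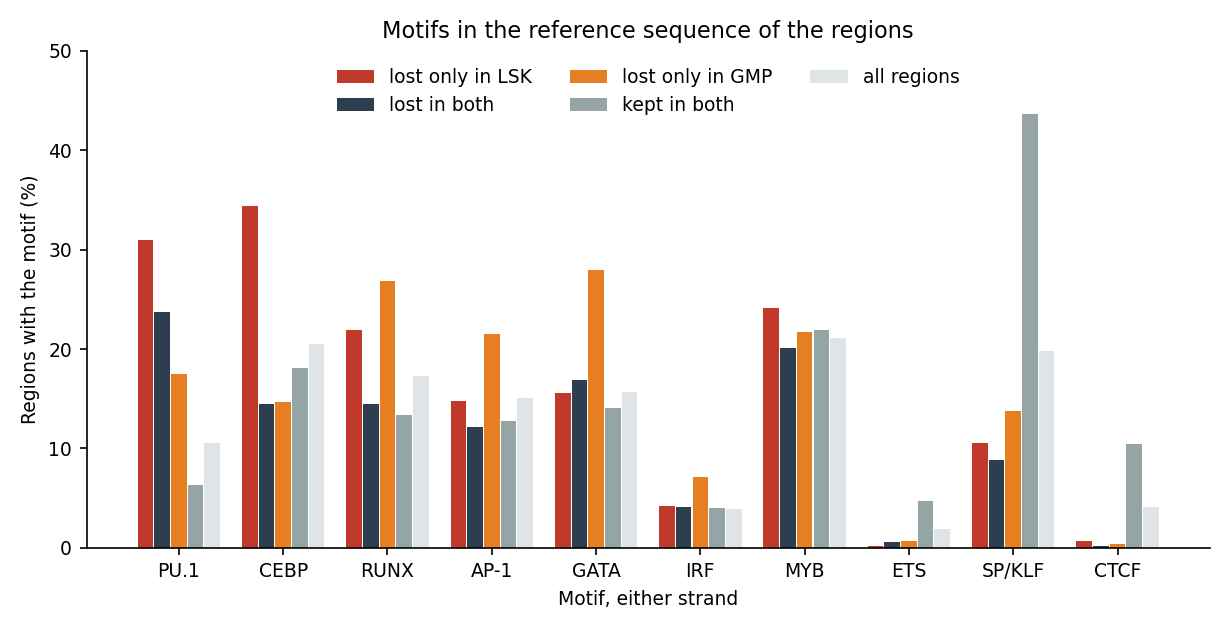
Share of regions (%) whose reference sequence holds each motif on either strand, in the 903 regions lost only in LSK and in stable regions lost in both cell types, lost only in GMP or kept in both, and in all regions. The C/EBP bar of the members (34.4%) is the highest of its group, and the SP/KLF and CTCF bars are low in all 3 lost classes.

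The members were scattered over the genome. They formed 842 loci when regions at most 50 kb apart were joined, of which 784 held 1 member, 55 held 2 and 3 held 3. They had 826 different nearest protein-coding genes. The loci of 3 lay near Dusp1, a MAP kinase phosphatase gene, and Ergic1 (chr17:26497236-26538433), within Rbms1, an RNA-binding protein gene (chr2:60842974-60884555), and near Plekhf2 and Ndufaf6 (chr4:11016577-11077244). In Rbms1 the LSK ratios were 0.290, 0.133 and 0.319 and the GMP ratios 0.706, 0.816 and 0.974. Near Dusp1 and Ergic1 the LSK ratios were 0.195, 0.245 and 0.159, and near Plekhf2 and Ndufaf6 0.203, 0.291 and 0.271, with GMP ratios of 1.02, 1.04 and 0.989.

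The regions around the members stayed near the background, a little under it in LSK and a little above it in GMP. Within 10 kb of a member lay 2863 other regions, with a median log2 fold change of 0.04 in LSK and 0.14 in GMP, beside 0.14 and 0.06 over all regions. Of these neighbours, 25.4% were called lower in URE-LSK and 12.1% had a positive interaction, beside 23.9% and 8.96% of all regions. In GMP 21.9% were called lower in URE, beside 24.1% of all regions. Among them 220 (7.68%) were stable regions lost in both cell types, beside 7.78% of all regions.

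Members lay near genes on the lists of hematopoietic regulators and lineage genes about as often as all regions did. Within 50 kb of the start of a gene on any of the 10 lists were 19 members (2.1%), beside 2.25% of all regions. Of PU.1 and its partner factors (21 genes), 4 had a member within 50 kb (0.443% of members, beside 0.382% of all regions). The gene of C/EBPα itself, Cebpa, had one 5.44 kb away (chr7:35124740-35125310), with 13.8, 12.6 and 12.5 CPM in LSK of WT mice and 1.86, 3.09 and 3.08 CPM in LSK of URE mice. In GMP it held 12.7, 12.9 and 10.7 CPM in WT and 10.1, 10.7 and 7.64 CPM in URE, a ratio of 0.789, against 0.222 in LSK. An intronic region of Myb, the gene of a factor of progenitor growth (chr10:21151420-21151677), had 2.86 ± 0.35 CPM in LSK of WT mice and 0.413 ± 0.051 CPM in LSK of URE mice (SD, n = 3). It had 3.87 ± 1.06 CPM in GMP of WT mice and 2.80 ± 0.75 CPM in GMP of URE mice. A region 46.2 kb from an Irf8 start (chr8:120798435-120798775), the gene of a monocyte and dendritic cell factor, had a ratio of 0.385 in LSK and 1.03 in GMP. Cebpe, which encodes C/EBPε, was the fourth.

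Of 18 neutrophil genes 5 had a member within 50 kb. These were 4 members (0.443% of members, beside 0.217% of all regions). An exonic region of the non-coding gene Gm13371, 7.09 kb from Fcnb, which encodes ficolin B of neutrophil granules (chr2:28091974-28092787), held 17.3, 18.1 and 20.2 CPM in LSK of WT mice and 4.83, 5.33 and 7.19 CPM in LSK of URE mice. In GMP its URE libraries lay above the WT libraries, with 31.8, 34.1 and 28.5 CPM in WT and 40.6, 41.7 and 39.9 CPM in URE. An intronic region of Prtn3, the proteinase 3 gene (chr10:79877179-79877562), had 13.8 ± 2.3 CPM in LSK of WT mice, 3.44 ± 0.47 in LSK of URE mice, 22.4 ± 0.2 in GMP of WT mice and 19.3 ± 1.4 in GMP of URE mice (SD, n = 3). Of 24 monocyte and dendritic cell genes 4 had a member (0.443% of members, beside 0.297% of all regions). The lysozyme gene Lyz2 had one at its start (chr10:117282055-117282467), with 8.01 ± 0.53 CPM in LSK of WT mice, 2.64 ± 0.74 in LSK of URE mice, 10.4 ± 1.1 in GMP of WT mice and 8.61 ± 0.14 in GMP of URE mice (SD, n = 3). Itgam, which encodes the integrin CD11b, had one 2.89 kb from a start (chr7:128065630-128065935) with ratios of 0.195 in LSK and 0.821 in GMP. Zeb2, a repressor gene, had one 40.9 kb away (chr2:44981605-44982062) with ratios of 0.376 and 1.003.

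Of 19 genes of stem and progenitor surface proteins and cytokine receptors 2 had a member (0.221% of members, beside 0.227% of all regions). An intronic region 7.24 kb from the start of Flt3, the receptor tyrosine kinase of multipotent and lymphoid-primed progenitors (chr5:147392512-147393248), held 30.5, 29.7 and 21.8 CPM in LSK of WT mice and 6.19, 9.95 and 10.03 CPM in LSK of URE mice. In GMP it held 32.0, 28.4 and 27.6 CPM in WT and 19.0, 22.8 and 22.8 CPM in URE, without overlap. The other was the Ncf4 promoter region, 42.5 kb from Csf2rb2. Of 22 stem and progenitor regulators, Myb and Nkx2-3 had a member (0.221% of members, beside 0.452% of all regions). The member near Nkx2-3 lay 36.0 kb away. Of 20 genes of lymphoid priming and the B lineage 1 had a member (0.111% of members, beside 0.204% of all regions). This was Notch1, a receptor needed for T cell fate. Its intronic region (chr2:26483106-26483929) held 37.8, 41.1 and 37.5 CPM in LSK of WT mice and 5.47, 9.49 and 8.30 CPM in LSK of URE mice, and was the member highest in GMP of WT mice, with 50.2, 59.0 and 55.6 CPM against 49.4, 50.2 and 47.4 CPM in GMP of URE mice.

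Of 17 cell survival and autophagy genes 3 had a member (0.332% of members, beside 0.264% of all regions). Near Mcl1, which encodes an anti-apoptotic BCL2 family protein, a region 6.97 kb from the start (chr3:95650236-95651816) held 20.7, 19.5 and 19.4 CPM in LSK of WT mice and 3.20, 5.61 and 4.27 CPM in LSK of URE mice. In GMP it held 42.1, 29.5 and 23.2 CPM in WT and 29.8, 35.1 and 20.5 CPM in URE, with much overlap. The others lay 24.0 kb from a start of Atg7, which encodes the E1-like enzyme of autophagy (ratios of 0.266 in LSK and 0.692 in GMP), and 19.9 kb from Rab37 (0.367 and 0.763). The region counted for Rab37 lay over a start of another gene, Cd300lf. For the Atg7 region the nearest start of a protein-coding transcript was that of Vgll4, 89.7 kb away. Its mean level in GMP was low, at 2.34 CPM in WT and 1.54 CPM in URE. Of 12 T lineage genes, Cd4 and Il2rb had a member within 50 kb (0.221% of members, beside 0.148% of all regions). The member 25.05 kb from Cd4 lay nearer to Ptms (1.15 kb) and Lag3 (1.57 kb). The member 49.4 kb from Il2rb lay over a start of Sstr3. Of 16 erythroid and megakaryocyte genes Vwf had a member (0.111% of members, beside 0.191% of all regions). Of 10 mast cell and basophil genes none had a member, beside 0.0973% of all regions near them.

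**Figure D5:**
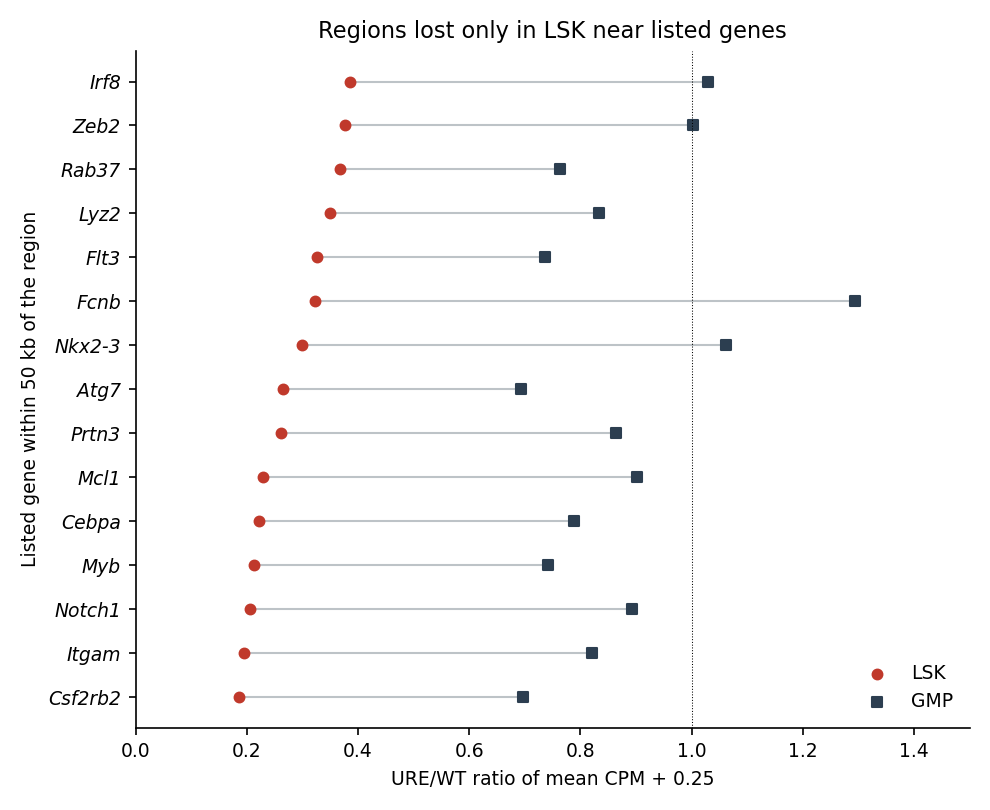
URE to WT ratio of mean CPM plus 0.25 (x axis) in LSK (circles) and GMP (squares) for named members within 50 kb of the start of a gene on the lists of PU.1 partners, neutrophil, monocyte, stem cell, lymphoid and survival genes. LSK ratios run from 0.187 near Csf2rb2 to 0.385 near Irf8, and only the Fcnb region exceeds a GMP ratio of 1.2. Regions are labelled by the listed gene, which need not be the nearest gene.

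Genes that differ between URE and WT progenitors in single-cell RNA-seq have been grouped by the study into signatures 1 to 4. Signatures 1 and 2 hold genes with lower expression in URE cells, and signatures 3 and 4 hold genes with higher expression in them. Within 50 kb of a start of a signature 1 gene were 43 members (4.76%, beside 3.75% of all regions), of a signature 2 gene 87 (9.63%, beside 6.58%), of a signature 3 gene 41 (4.54%, beside 4.6%) and of a signature 4 gene 111 (12.3%, beside 8.61%). In regions lost in both cell types the shares were 4.59%, 7.46%, 3.52% and 6.4% for signatures 1 to 4, and in regions lost only in GMP 7.54%, 6.99%, 3.49% and 4.23%. These lists were chosen on mice of the same genotypes and are not independent of the loss. The members highest in WT-LSK for signature 3 were the Notch1 region, a region 2.04 kb from Rab44 and 13.4 kb from Cdkn1a, the p21 gene (chr17:29111307-29112101), and an intronic region of Prex1, a Rac activator gene (chr2:166655354-166656535). The Rab44 region held 28.7, 24.4 and 26.5 CPM in LSK of WT mice and 2.22, 3.94 and 4.72 CPM in LSK of URE mice. In GMP its URE libraries were the higher ones, with 41.8, 41.4 and 40.4 CPM in WT and 48.0, 48.5 and 51.0 CPM in URE. For signature 1 they were regions in Flt3, Gfod1 and Mef2c, a myeloid and lymphoid transcription factor gene, with LSK ratios of 0.326, 0.120 and 0.353. For signature 4 they were the Osbpl3 region and regions 7.87 kb from Rmnd5b and 40.4 kb from Diras2, the last lying 10.3 kb from Syk, a kinase gene of immune receptor signalling, with LSK ratios of 0.352, 0.125 and 0.192. For signature 2 they were the Relt, Slc7a1 and Gm21057 regions already described. The signature 2 gene near the Gm21057 region was Idh2, 20.5 kb away.

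No member lay within 100 kb of the Spi1 start. The region over the main Spi1 start (chr2:91096454-91097341) came close to the rule, with 39.0, 36.3 and 37.4 CPM in LSK of WT mice, 2.70, 8.29 and 5.72 CPM in LSK of URE mice, 33.4, 38.6 and 37.1 CPM in GMP of WT mice and 23.0, 27.0 and 19.9 CPM in GMP of URE mice. Its LSK ratio of 0.154 met the rule, and its GMP ratio of 0.643 lay just under the limit of 0.67.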

How the data were processed

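Nuclei of sorted LSKs and GMPs (3 mice per genotype and cell type) had been profiled with the OmniATAC protocol. According to the submitters' notes and the study's methods, cutadapt trimmed the reads, bowtie2 placed them on GRCm38, duplicates and reads off the primary chromosomes were discarded, and Genrich (v0.6.1) called peaks in each group. bedtools and featureCounts are also named. The authors deposited raw counts per region and library without normalization. What a count stands for, a fragment or a read end, is not given in the sources used here. Table starts were taken as 0-based and are printed 1-based.

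Levels and ratios were computed from CPM over library totals. Contrasts were fitted in R 4.3.3 with edgeR 4.0.16 (TMM, quasi-likelihood test, all 12 libraries, Benjamini-Hochberg adjustment over 121336 regions), after a test on simulated data. The filter removed 0 regions. DESeq2 1.42.0 was an alternative. Regions were annotated with GENCODE M21, and motifs were counted in the GRCm38 sequence (NCBI RefSeq). A list gene counted when a start lay within 50 kb.

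The members, lists, motifs and tests were chosen with earlier results of these data known. Named members were the 6 highest in WT-LSK, the 6 with the lowest LSK ratio at 5 CPM or more, the 6 highest at protein-coding starts, up to 3 per list, the 3 largest loci, the Spi1 starts and those nearest each limit. The first 4 kinds needed all URE-LSK libraries under all WT-LSK libraries. Sequences overlapping an annotated UTR were not printed. A member named by the rule at protein-coding starts is not reported here.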

Additional observations from a re-analysis of the deposited data

Results flagged for a closer look

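The genotype effect differed between LSK and GMP, by the interaction term of the fit with edgeR and Benjamini-Hochberg adjustment, in 867 of the 903 members, beside such a call in 8.96% of all regions. The members were chosen on the same values, so this difference follows from the choice and gives no independent evidence. Groups of 3 libraries are too small for a test of single outlying libraries, and none was made.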

How the results depend on the processing

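The number of regions that met the rule was 936 with TMM-scaled CPM, of which 735 were among the 903, 926 with RLE-scaled CPM (663 shared), 906 with 0.1 added (835 shared) and 848 with 1 added (600 shared). Without 1 library it ran from 795 to 1067, with 774 to 888 shared. Counts of members called lower in LSK (902 to 903), called in GMP (0 to 1), with a positive interaction (819 to 874) and higher in GMP within URE (814 to 853) moved little without 1 library. The count called in GMP was 86 with no fold limit, 11 with GC content offsets and 8 with loess offsets, and the count lower in LSK was 816 with GC content offsets. Shares of all regions at these settings are not given here. Replicate numbers were not taken as pairs across the groups compared. Correlations of deviations ran from -0.06 to 0.10 between URE-LSK and WT-LSK, from 0.10 to 0.35 between URE-GMP and WT-GMP, and from 0.06 to 0.27 between URE-GMP and URE-LSK, but from 0.18 to 0.21 between WT-GMP and WT-LSK, and whether these share mice is not given in the sources used here. The replicate block gave 903 members lower in LSK, 0 in GMP, 875 with a positive interaction and 837 higher in GMP within URE. Within genotype it gave 878 and 836. The PU.1 share was 70.4% with the core GAGGAA, the C/EBP share 8.08% with the longer motif (chosen after seeing the data), the promoter share 4.32% with protein-coding transcripts only, and the listed-gene count 10 when the nearest start had to be that of the gene. The other alternatives moved no count or share by over 1.5 times and turned no direction. For neighbours of members the median log2 fold change in LSK was 0.10 within 50 kb, against 0.04 within 10 kb. Over all regions it was 0.14. Depth limits the weakest members, whose URE-LSK levels were as low as 0.107 CPM.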

Other observations

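The 33 stable regions that were lost in LSK and had a GMP ratio above 1.5 were not members. None of them lay at a promoter, 33.3% held the PU.1 motif, 36.4% the C/EBP motif and 30.3% the RUNX motif AACCACA. The highest GMP ratio was that of an intergenic region 225 kb from Slc24a2 (chr4:87455926-87456515), picked after its values were seen, with 4 C/EBP motifs and 1 PU.1 motif. It had 4.78 ± 0.39 CPM in LSK of WT mice, 0.879 ± 0.387 in LSK of URE mice, 5.04 ± 1.21 in GMP of WT mice and 14.7 ± 2.6 in GMP of URE mice (SD, n = 3), a ratio of 0.225 in LSK and 2.82 in GMP. The next by GMP ratio lay 56.8 kb from E2f3 (chr13:30042894-30043372, ratios of 0.344 in LSK and 2.60 in GMP) and 93.4 kb from Foxb1 (chr9:69667094-69667587, 0.227 and 2.38), both with neither motif, and 75.7 kb from Dcaf5 (chr12:80360330-80360951, 0.285 and 2.24), with 1 PU.1 motif.

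Members were found on every autosome and on chromosome X, with shares of the regions there from 0.616% on chromosome 1 to 0.994% on chromosome 19.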
